A study of Mus musculus with 14 samples.

Results

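The comparison set light zone (LZ) against dark zone (DZ) germinal centre (GC) B cells of wild-type (WT) genotype, across all genes measured. Its libraries were chosen by their genotype and zone labels and not by any measured value: 4 WT LZ libraries (replicates 1, 2, 3 and 5) and 4 WT DZ libraries (replicates 2, 3, 4 and 5), 8 of the 14 libraries of the study. The other 6 are 3 SykY317F LZ and 3 SykY317F DZ libraries, from cells that carry a form of the kinase Syk in which phenylalanine takes the place of a tyrosine. All cells came from popliteal lymph nodes of C57BL/6 chimeric mice, made to be 50% WT and 50% SykY317F, harvested 14 days after immunization with the hapten carrier NP-KLH. The WT cells therefore shared their hosts with mutant cells. The labels give neither the age of the mice, nor the surface markers of the sort, nor whether libraries of one group came from separate mice or pools, so p-values measure the spread between these libraries.

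A germinal centre is where B cells that have met antigen improve their antibodies. In the dark zone the cells divide and mutate their antibody genes, and in the light zone they take up antigen from follicular dendritic cells, compete for help from T cells and either return to the dark zone, leave or die. Cells shuttle between the zones, so both states share most of their transcripts.

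Counts are unique molecular identifiers (UMIs), tags that mark each captured transcript end so that PCR copies are counted once. They summed to 499443 to 1600902 in the WT LZ libraries and to 747948 to 1767898 in the WT DZ libraries, and 3 UMIs corresponded to 1.73 to 5.76 CPM (UMIs scaled by TMM to a common library total) in these 8. Of 9969 genes in the table, 7999 held enough UMIs to be tested. A lower level in bulk RNA can mean fewer cells that hold a transcript or less of it per cell, and the 2 cannot be told apart.

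The libraries did not separate by zone alone. The first principal component of the 8 WT libraries held 45.2% of the variance and placed WT LZ replicate 1 (-47.3) beside WT DZ replicate 5 (-41.9), and WT LZ replicate 5 (21.5) on the side of WT DZ replicates 3 and 4 (40.4 and 41.9). The second, with 18.6%, had all LZ libraries (from -0.89 to 34.9) above all DZ libraries (from -40.2 to -2.60). Across genes, WT LZ replicate 5 had a median correlation of 0.922 with the other LZ libraries and 0.946 with the DZ libraries, and WT DZ replicate 5 had 0.861 with the other DZ libraries and 0.899 with the LZ libraries. Both libraries numbered 5 were thus closer to the other zone than to their own, while each of the other 6 was closer to its own. Rgs13, a brake on chemokine signalling, was at 3.29, 8.90, 5.76 and 33.5 CPM in the LZ libraries against 42.7, 107, 96.1 and 6.28 CPM in the DZ libraries, with the number 5 library the highest of LZ and the lowest of DZ. Values are given with these libraries unless said otherwise.

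**Figure D1:**
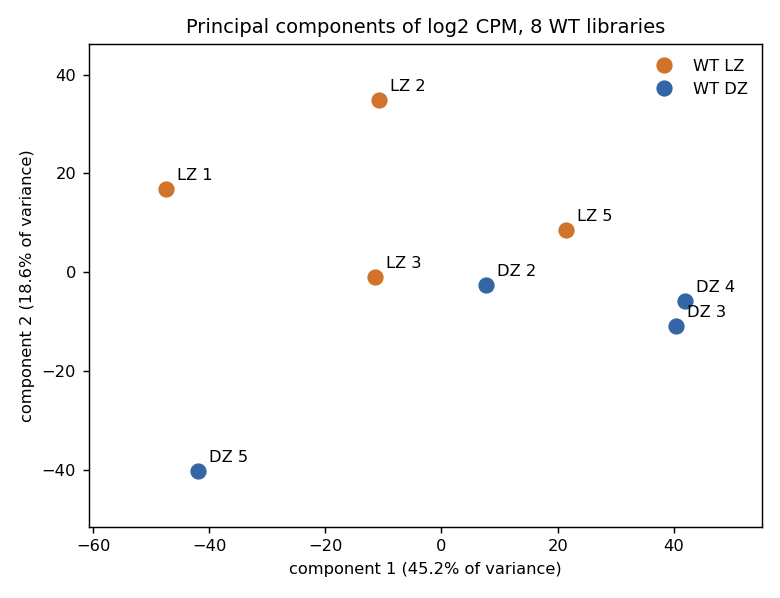
First and second principal component of log2 CPM over 7999 genes, 1 point per WT library, with the share of variance on each axis (45.2% and 18.6%). The zones separate along the second component, while along the first WT LZ replicate 1 and WT DZ replicate 5 lie together at the low end.

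Between the zones, 15 of 7999 genes changed, 0.188% of those tested: 4 were higher in LZ and 11, or 0.138%, lower (edgeR quasi-likelihood test, Benjamini-Hochberg adjusted p from 0.00146 to 0.0458). Of the 11, 1 is a transcript with a predicted symbol and is not named here. The 4 higher genes encode a surface receptor, a receptor adaptor, a stress protein and a secreted complement factor. The 10 named lower genes include enzymes of lipid and nucleotide metabolism, a DNA protection factor, cell cycle and cytoskeleton genes. In all 15 the 4 LZ and 4 DZ libraries did not overlap, a separation that 231 genes showed with LZ above (2.89% of those tested) and 230 with DZ above (2.88%). An unadjusted p under 0.05 was reached by 367 genes on the higher side (4.59%) and 311 on the lower (3.89%).

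**Figure D2:**
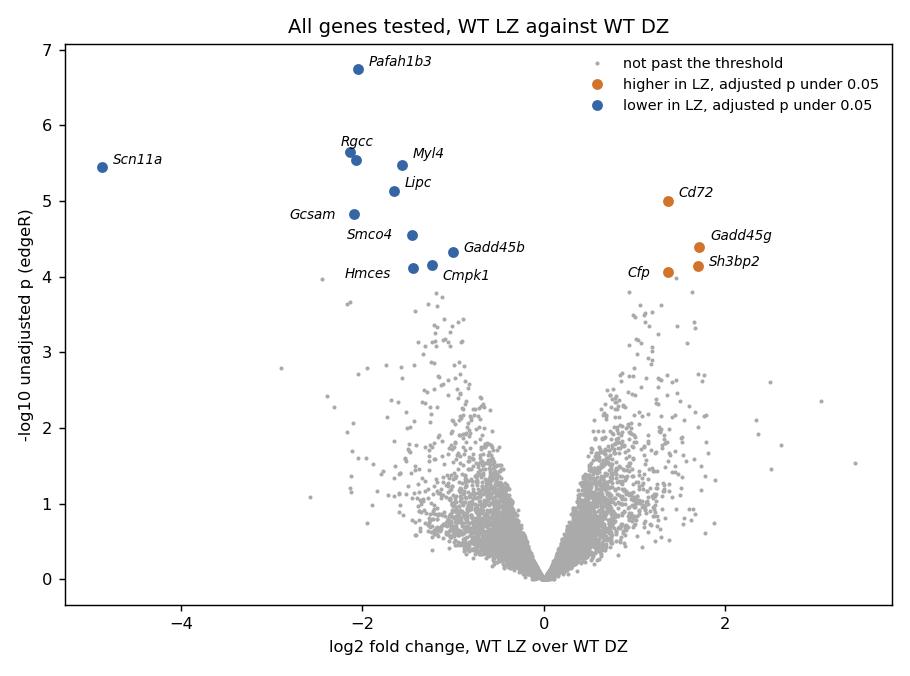
Log2 fold change of WT LZ over WT DZ (x axis) against -log10 of the unadjusted edgeR p (y axis), 1 point per tested gene, with the 15 genes past an adjusted p of 0.05 coloured. The SD of the log2 fold change over all 7999 genes is 0.51 and its median -0.02, and 11 of the coloured genes lie on the lower side.

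The receptors and adaptors come first among the genes higher in LZ, with values in the order of replicates 1, 2, 3 and 5 for LZ and 2, 3, 4 and 5 for DZ throughout. Cd72 (chromosome 4, 43446462 to 43454628, GRCm38), a surface co-receptor that restrains antigen receptor signalling, was at 894, 1097, 570.1 and 598 CPM in LZ and at 287, 292, 357 and 289.5 CPM in DZ. The lowest LZ library was well above the highest DZ library. Its log2 fold change was 1.37 ± 0.24 (SE; adjusted p = 0.0115, edgeR), and it passed under 21 of 28 alternative settings. Sh3bp2 (chromosome 5, 34525838 to 34563641), an adaptor that binds Syk and other signalling proteins downstream of immune receptors, was at 151, 86.0, 59.5 and 80.3 CPM in LZ and at 45.3, 27.6, 20.5 and 25.1 CPM in DZ. Replicate 1 stood highest in LZ and replicate 2 highest in DZ, without overlap. Its log2 fold change was 1.70 ± 0.34 (adjusted p = 0.0433, edgeR; past the threshold under 12 of 28 settings). Cd72 overlaps Tesk1 on the other strand, and whether the counting used strand is not known here, so part of its count is uncertain.

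Gadd45g (chromosome 13, 51846678 to 51848468), a stress-inducible regulator of growth arrest and MAP kinase signalling, was at 192, 170.0, 61.4 and 76.8 CPM in LZ and at 44.0, 24.6, 43.6 and 41.4 CPM in DZ. LZ replicates 1 and 2 were above replicates 3 and 5, and all were above DZ. The log2 fold change was 1.71 ± 0.33 (adjusted p = 0.0325, edgeR; 15 of 28 settings). Cfp (chromosome X, 20925454 to 20931555), which encodes properdin, the complement factor that stabilises the alternative pathway convertase, was at 136, 98.9, 76.8 and 78.5 CPM in LZ and at 33.7, 31.3, 28.5 and 56.5 CPM in DZ. DZ replicate 5 was the highest of its zone and below every LZ library. Properdin's log2 fold change was 1.37 ± 0.28 (adjusted p = 0.0458, edgeR; Cfp passed under 13 of 28 settings).

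Among the genes lower in LZ, Pafah1b3 and Lipc act in lipid metabolism. Pafah1b3 (chromosome 7, 25295049 to 25297986), a catalytic subunit of the enzyme that inactivates platelet-activating factor, was at 155, 156, 242 and 161 CPM in LZ and at 699, 635, 542 and 1068 CPM in DZ. LZ replicate 3 and DZ replicate 5 were the highest of their zones, and the gap between the zones was wider than the range within LZ. The log2 fold change was -2.05 ± 0.27 (adjusted p = 0.00146, edgeR), past the threshold under 26 of 28 settings and in all 14 fits without 1 library. Lipc (chromosome 9, 70798128 to 70952226), hepatic lipase, a secreted lipase best known from the liver, was at 69.1, 48.4, 82.5 and 72.7 CPM in LZ and at 177, 215, 203 and 259 CPM in DZ. No LZ library came near the lowest DZ library. Its log2 fold change was -1.66 ± 0.28 (adjusted p = 0.00976, edgeR; 23 of 28 settings).

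Hmces and Cmpk1 were lower in LZ as well, while their lists, somatic mutation and DNA repair and nucleotide synthesis, had medians near 0 (22 of 46 and 16 of 35 tested members above 0, median log2 fold changes -0.03 and -0.05). Hmces (chromosome 6, 87913935 to 87936629), which shields abasic sites in single-stranded DNA, was at 197, 265, 476 and 262 CPM in LZ and at 781, 808, 604 and 1053 CPM in DZ. LZ replicate 3 was the highest of its zone and still below DZ. The log2 fold change of Hmces was -1.44 ± 0.29 (adjusted p = 0.0433, edgeR; 11 of 28 settings). Cmpk1 (chromosome 4, 114959336 to 114987241), the kinase that phosphorylates cytidine and uridine monophosphates, was at 104, 83.0, 171 and 154 CPM in LZ and at 202, 345, 307 and 341 CPM in DZ. DZ replicate 2 was the lowest of its zone, not far above LZ replicate 3. The log2 fold change of Cmpk1 was -1.23 ± 0.25 (adjusted p = 0.0433, edgeR; 12 of 28 settings).

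The remaining named lower genes have varied roles. Gcsam (chromosome 16, 45610380 to 45622867), a GC-restricted adaptor that tunes antigen receptor signalling and cell motility, was at 31.8, 24.7, 46.1 and 73.9 CPM in LZ and at 171, 235, 258 and 102 CPM in DZ. Replicate 5 was the highest in LZ and the lowest in DZ, so that the number 5 libraries came closest to each other. Its log2 fold change was -2.09 ± 0.36 (adjusted p = 0.0148, edgeR; 18 of 28 settings). Myl4 (chromosome 11, 104550663 to 104595753), a myosin light chain known from the embryonic heart, was at 108, 83.0, 136 and 81.4 CPM in LZ and at 239, 295, 242 and 417 CPM in DZ. All DZ libraries were above all LZ libraries, with DZ replicate 5 the highest. The log2 fold change of Myl4 was -1.57 ± 0.25 (adjusted p = 0.00571, edgeR; 24 of 28 settings). Rgcc (chromosome 14, 79288756 to 79301645), a cell cycle regulator induced by complement that binds Cdk1, was at 31.8, 27.7, 40.3 and 32.9 CPM in LZ and at 126, 149.9, 115 and 163 CPM in DZ. Its libraries varied little within LZ. The log2 fold change of Rgcc was -2.07 ± 0.33 (adjusted p = 0.00571, edgeR; 25 of 28 settings).

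Gadd45b (chromosome 10, 80930073 to 80932204), a relative of Gadd45g with related functions, was at 375, 324, 418 and 348 CPM in LZ and at 774, 737, 587 and 839.6 CPM in DZ. The zones were separated in the direction opposite to Gadd45g, with a log2 fold change of -1.01 ± 0.20 (adjusted p = 0.0340, edgeR; Gadd45b passed under 13 of 28 settings). The third family member, Gadd45a, had a log2 fold change of -0.10 ± 0.38, with overlapping libraries and a sign that changed without both libraries numbered 5 (0.30). Smco4 (chromosome 9, 15493432 to 15545260), a small membrane protein, was at 40.6, 28.7, 42.2 and 52.5 CPM in LZ and at 98.4, 116, 89.0 and 149 CPM in DZ, a log2 fold change of -1.46 ± 0.27 (adjusted p = 0.0254, edgeR; 19 of 28 settings). The number 5 library was the highest of each zone. Scn11a (chromosome 9, 119753759 to 119825456), a sodium channel known from pain-sensing neurons, was near the limit of detection in LZ, with 1, 0, 0 and 1 UMI, against 9, 20, 24 and 35 UMIs in DZ. Scaled to depth, the DZ over LZ ratio was 38.0 (95% exact counting interval 10.2 to 319, counting error only). Scn11a passed under 24 of 27 settings that gave it a value.

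**Figure D3:**
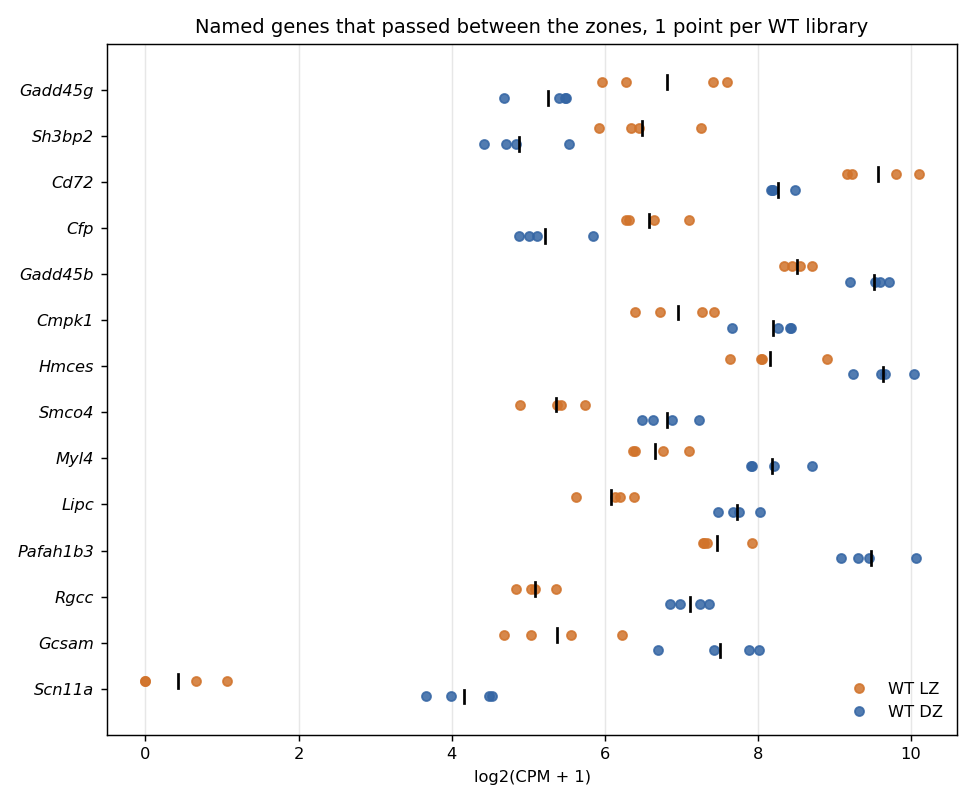
Log2(CPM + 1) of the 14 named genes that passed between the zones, 1 point per WT library, LZ and DZ in separate colours. Cd72 (LZ 570.1 to 1097 CPM, DZ 287 to 357 CPM) and Pafah1b3 (LZ 155 to 242 CPM, DZ 542 to 1068 CPM) are among the most abundant, and in no row do the colours overlap.

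These calls rest on how the spread was estimated and on single libraries. All 15 had an adjusted p under 0.05 in the authors' deposited table, which called 78 of 9969 genes (0.782%), while read counts in place of UMIs gave 0 calls, with 388 genes at an unadjusted p under 0.05. Without WT LZ replicate 2 only Pafah1b3 passed, without WT DZ replicate 3 the count was 6, without WT LZ replicate 1 it was 7, without SykY317F LZ replicate 1 or 2, which share the estimate of spread, it was 9, and without WT LZ replicate 3 it was 26. Without both WT libraries numbered 5, a choice made after their profiles were seen, 170 genes passed (2.24% of 7573 tested), 37 higher (0.489%) and 133 lower in LZ (1.76%), and all 15 were among them.

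Below the threshold, the next genes by p whose libraries did not overlap were 10 on each side, with adjusted p from 0.0656 to 0.0850 (higher side) and from 0.0507 to 0.0858 (lower side) in edgeR. On the higher side stood Cd40, the receptor through which T cells help B cells, at 420.2, 315, 336 and 313 CPM in LZ and 161, 151, 189 and 222 CPM in DZ (log2 fold change 0.94 ± 0.20). Ffar2, a receptor for short-chain fatty acids, had a log2 fold change of 1.64 ± 0.36 and averaged 46.1 ± 11.7 CPM in LZ and 15.3 ± 7.87 CPM in DZ (SD, n = 4 each). Capg, an actin filament capping protein, was at 1.29 ± 0.29, and Ncf1, the organiser subunit of the phagocyte NADPH oxidase, at 0.98 ± 0.23 (log2 fold change ± SE). Slfn2, which keeps lymphocytes quiescent, had 1.19 ± 0.27, and Ephx1, microsomal epoxide hydrolase, 1.06 ± 0.24. The other 4 were Chd2, a chromatin remodeller, at 1.11 ± 0.26, the sorting nexin Snx11 at 1.10 ± 0.26, Snrnp70, a protein of the U1 spliceosomal particle, at 1.01 ± 0.24, and Hexa, a lysosomal hexosaminidase subunit, at 1.11 ± 0.26. Ncf1 and Hexa overlap genes on the other strand (Gtf2ird2 and Tmem202).

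The 10 on the lower side included stress, chromatin and division genes. Eif2ak3, which encodes the endoplasmic reticulum stress sensor PERK, was at 53.8, 32.6, 49.9 and 71.6 CPM in LZ and 107, 117, 134 and 98.0 CPM in DZ (log2 fold change -1.12 ± 0.25). Cdc25b, a phosphatase that activates Cdk1 at entry into mitosis, was at 115, 76.1, 173 and 196 CPM in LZ and 259, 302, 315 and 386 CPM in DZ (log2 fold change -1.17 ± 0.27). The linker histone gene H1fx had -1.28 ± 0.29, Mbd2, a reader of methylated DNA, -1.10 ± 0.26, and Cenpv, a centromere protein, -1.22 ± 0.29. The oxidoreductase gene Pyroxd1 had -1.42 ± 0.32, Txndc11, a thioredoxin domain protein of the endoplasmic reticulum, -0.90 ± 0.21, and the LIM domain gene Csrp2 -0.94 ± 0.22. Low in both zones were Lrrc49, a leucine-rich repeat gene, with a mean of 5.75 ± 3.60 CPM in LZ and 30.6 ± 10.0 CPM in DZ (SD, n = 4 each), and Guca1b, a guanylate cyclase activator of the retina, with 7.02 ± 5.09 CPM in LZ and 28.2 ± 8.23 CPM in DZ. Cdc25b, Pyroxd1 and Txndc11 overlap genes on the other strand (Spef1, Recql and Snn).

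Genes whose products are usually used to tell the zones apart had larger unadjusted p-values than these genes (edgeR). Cd83, a surface marker of light zone cells, was at 406, 705, 541 and 729 CPM in LZ and 277, 316, 354 and 294 CPM in DZ, a log2 fold change of 0.94 ± 0.24 that did not pass (adjusted p = 0.106, edgeR). Its libraries did not overlap. Cd86, a costimulatory ligand, was at 64.7, 67.2, 82.5 and 118 CPM in LZ and 33.7, 102, 106 and 16.96 CPM in DZ, with a log2 fold change of 0.37 ± 0.48 that became -0.22 without both libraries numbered 5. Cxcr4, the chemokine receptor that draws cells into the dark zone, was at 159, 170.0, 96.0 and 93.5 CPM in LZ and 325, 139, 149 and 190.3 CPM in DZ (log2 fold change -0.62 ± 0.30; adjusted p = 0.588, edgeR). The zones overlapped for Cd86 and for Cxcr4. Syk itself was at 353, 502, 422 and 409.9 CPM in LZ and 593, 477, 467 and 529 CPM in DZ (log2 fold change -0.29 ± 0.19), and its libraries also overlapped.

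Gene lists describe the weaker, broader differences. All lists were chosen with earlier results of these data known, so the direction of a list is not independent evidence. The lists share members, and over all 7999 tested genes 48.3% had a log2 fold change above 0, 2.89% had LZ above DZ without overlap and 2.88% had DZ above LZ without overlap. The list of light zone activation and surface genes had 27 of 30 tested members above 0 and 3 below, 10 with LZ above DZ without overlap and 0 the other way, and a median log2 fold change of 0.54 (from 0.51 to 0.73 over the alternatives). Its summed level was 14845, 17131, 11768 and 13726 CPM in LZ and 9867, 9276, 9691 and 8798 CPM in DZ. Cd72 was its 1 member past the threshold. Fcer2a, the low-affinity IgE receptor CD23, had 0.84 ± 0.24 and Ccr6, a chemokine receptor of memory precursor and light zone cells, 1.65 ± 0.38, both with overlapping libraries. The dark zone list had 15 of 16 tested members below 0, 6 with DZ above LZ without overlap, a median of -0.83 and 4 members past the threshold: Rgcc, Lipc, Gcsam and Hmces. Of these, Hmces, Rgcc and Lipc were placed on the list with earlier results of these data known, so its direction is not independent evidence. Its summed level was 2457, 2083, 3339.8 and 2801 CPM in LZ and 4483, 5039, 4568 and 5129 CPM in DZ. Lig4, the ligase of DNA end joining, had -1.58 ± 0.43 and did not pass.

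**Figure D4:**
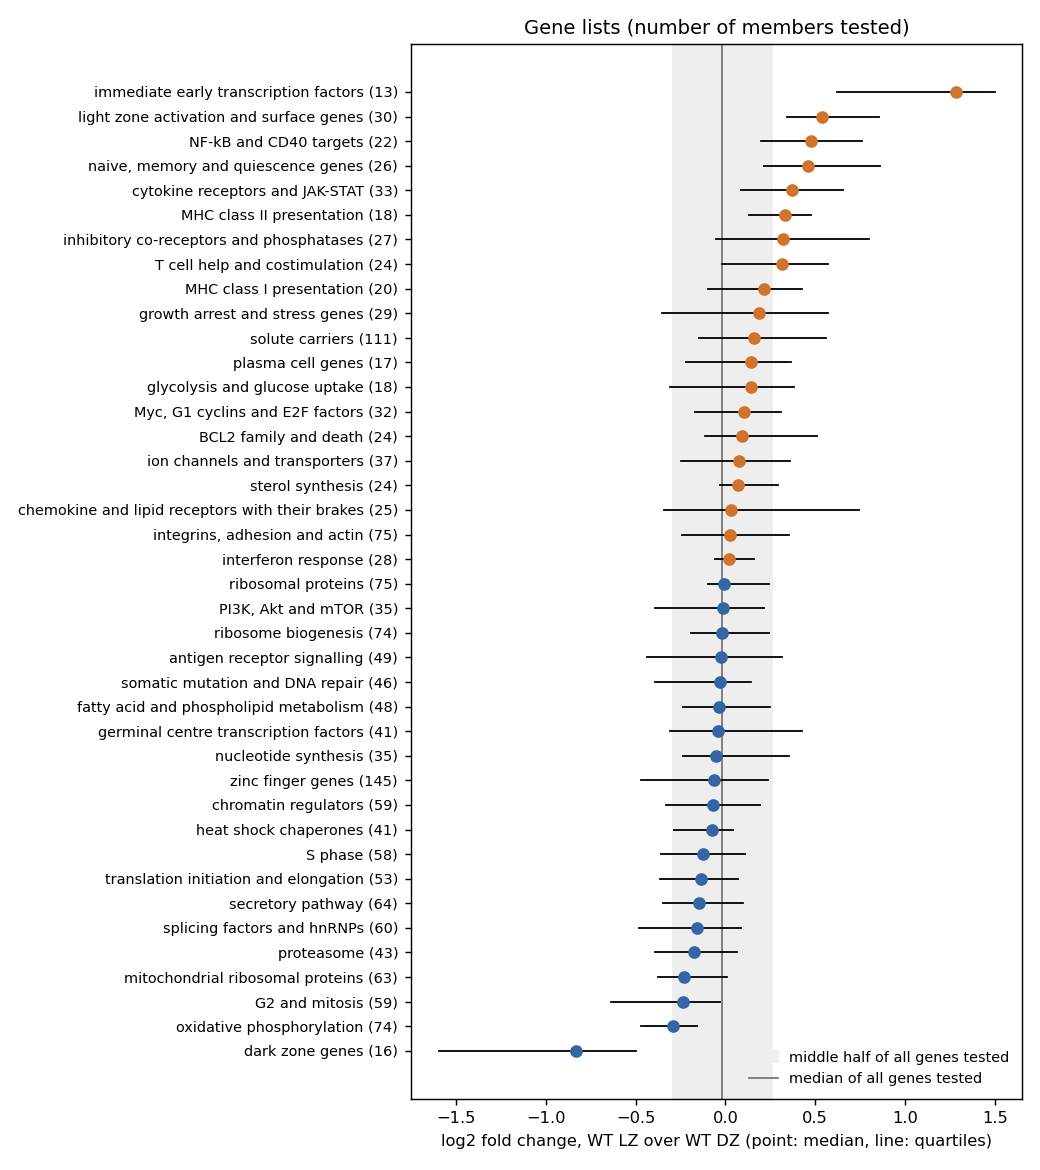
Median log2 fold change of WT LZ over WT DZ for each gene list (points), with lines between the quartiles and the number of tested members in brackets. The immediate early transcription factors have the highest median of the lists other than cell type markers (1.28), the dark zone genes the lowest (-0.83), and ribosomal proteins lie near 0 (-0.01).

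The NF-kB and CD40 list, targets and members of the pathway that T cell help switches on, had 20 of 22 tested members above 0, 4 with LZ above DZ without overlap (18.2%) and a median of 0.47, and 0 passed. Cd40, Nfkb2, Nfkbid and Nfkb1 were those 4. Nfkb2, the precursor of p52, was at 434, 346, 215 and 223 CPM in LZ and 195, 148, 148 and 214 CPM in DZ (log2 fold change 0.79 ± 0.24), and Nfkbid, a nuclear inhibitor protein of the pathway, had 1.29 ± 0.45. Relb, the partner of p52, had 0.80 ± 0.25 with overlapping libraries. Of 22 members 19 had a promoter in RefSeq, and 7 of those (36.8%) held the NF-kB motif (GGG, NN, then TTTCC) on either strand within 250 bases upstream of the start, against 1.81% of the 6228 tested genes with a promoter. As the list was made of known targets and members of the pathway, its share describes the list and not the zones. Over all genes with LZ above DZ without overlap the share was 1.66%, and 0 of the 4 genes that passed higher in LZ held the motif. The window of Nfkbia is shown as an example, a gene that NF-kB is known to switch on and whose product holds NF-kB back; it was chosen for this role after its values were seen. Nfkbia itself was at 732, 858, 614 and 829.7 CPM in LZ and 759.8, 406, 549 and 437 CPM in DZ (log2 fold change 0.50 ± 0.23), with DZ replicate 2 inside the LZ range. The 250 bases upstream of its RefSeq start (chr12:55492648-55492897, GRCm38.p6, minus strand) are printed with the motif match in capitals, read on the other strand.
Nfkbia: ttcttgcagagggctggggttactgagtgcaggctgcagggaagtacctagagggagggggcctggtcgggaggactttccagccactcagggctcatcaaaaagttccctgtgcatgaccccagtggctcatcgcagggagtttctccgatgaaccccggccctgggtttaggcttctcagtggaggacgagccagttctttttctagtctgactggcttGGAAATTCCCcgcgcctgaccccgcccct

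Immediate early transcription factors, which cells switch on within minutes of receptor signals, had all 13 tested members above 0 and a median of 1.28 (from 0.61 to 1.47 over the alternatives), yet only 1 without overlap and 0 past the threshold. That one was Egr2, at 26.3, 21.7, 23.03 and 34.6 CPM in LZ and 6.47, 8.95, 11.6 and 10.0 CPM in DZ (log2 fold change 1.499 ± 0.47). Ier2 (1.52 ± 0.53), Junb (1.44 ± 0.62) and Egr3 (1.38 ± 0.71) had overlapping libraries. The summed level was 1403, 1871, 802 and 753 CPM in LZ and 799, 554, 613 and 712 CPM in DZ, so that LZ replicates 1 and 2 stood apart from the rest. Myc, the growth regulator induced in cells selected to divide again, had 0.98 ± 0.40, with LZ replicate 5 (24.8 CPM) inside the DZ range (10.4 to 37.5 CPM).

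Antigen receptor signalling genes as a list did not lean either way: 23 of 49 tested members were above 0 and 26 below, with a median of -0.03. Sh3bp2 was the 1 that passed. Cd79b, a signalling chain of the receptor, had -0.49 ± 0.22. Inhibitory co-receptors and phosphatases had 19 of 27 members above 0, 6 with LZ above DZ without overlap (22.2%), 0 the other way, a median of 0.32 and 1 past the threshold, Cd72. Pirb, an inhibitory receptor for MHC class I, was at 83.4, 103, 38.4 and 56.6 CPM in LZ and 36.2, 18.7, 38.3 and 37.0 CPM in DZ (log2 fold change 1.13 ± 0.32). Pecam1, another inhibitory receptor, had 0.84 ± 0.33 and the MAP kinase phosphatase gene Dusp2 0.53 ± 0.23, both without overlap.

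Antigen presentation and T cell help had more members above 0 than below. MHC class II presentation had 14 of 18 tested members above 0, a median of 0.33 and 1 without overlap, and 0 passed. That gene, Ifi30, a lysosomal thiol reductase that prepares antigen, was at 1481, 1324, 1159 and 1255 CPM in LZ and 734, 593, 689 and 1110.3 CPM in DZ (log2 fold change 0.74 ± 0.24). MHC class I presentation had 14 of 20 above 0, 4 without overlap (20%), a median of 0.21 and 0 past the threshold, with the nonclassical molecule H2-T23 at 914, 679, 524 and 549 CPM in LZ and 403, 309, 363 and 131 CPM in DZ (log2 fold change 1.15 ± 0.31). The summed levels of both presentation lists overlapped, with WT DZ replicate 5 above every LZ library: class II was at 44286 to 62147 CPM in LZ and 31911 to 66495 CPM in DZ, and class I at 12302 to 13301 CPM in LZ and 10537 to 14159 CPM in DZ. Over the alternatives the class I median was 0.10 to 0.37. T cell help and costimulation had 17 of 24 above 0 and a median of 0.31, with the shared cytokine receptor chain Il2rg at 0.66 ± 0.22 without overlap. Cytokine receptor and JAK-STAT genes had 27 of 33 above 0 and a median of 0.37. Stat3, which relays IL-21 and other cytokines, had 0.68 ± 0.21, while Pim1, a survival kinase, was on the lower side at 57.0, 50.4, 96.0 and 97.6 CPM in LZ and 211, 164, 174 and 144 CPM in DZ (log2 fold change -1.20 ± 0.29). None of these lists had a member past the threshold.

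Transcription factors of the germinal centre were split, with 19 of 41 tested members above 0 and a median of -0.04. Pou2af1, the coactivator OCA-B that GC formation needs, was at 371, 254, 576 and 548 CPM in LZ and 667, 961, 981 and 1016 CPM in DZ (log2 fold change -1.05 ± 0.27). Bcl6, the repressor that defines GC B cells, had -0.58 ± 0.22 (LZ 203 to 288 CPM, DZ 293 to 477 CPM), and Runx3 lay on the other side at 1.07 ± 0.27 (LZ 53.7 to 72.2 CPM, DZ 24.6 to 49.2 CPM). All 3 were without overlap and did not pass. Receptors that place cells in the follicle were split too. S1pr3 had 1.02 ± 0.27 (LZ 97.9 to 112 CPM, DZ 36.4 to 60.5 CPM), and S1pr2, which holds B cells in the germinal centre, -0.53 ± 0.23 (LZ 262 to 526 CPM, DZ 538 to 622 CPM). Neither passed.

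Division genes leaned to DZ. G2 and mitosis genes had 14 of 59 tested members above 0 and 45 below, 5 with DZ above LZ without overlap (8.47%), 0 the other way, a median of -0.23 (from -0.45 to -0.11 over the alternatives) and 0 past the threshold. Cdc20, which activates the anaphase-promoting complex, was at 42.8, 44.5, 71.0 and 42.7 CPM in LZ and 104, 123, 87.2 and 106 CPM in DZ (log2 fold change -1.09 ± 0.27). Ccnb2, cyclin B2, was at 52.7, 63.3, 134 and 72.7 CPM in LZ and 102, 213, 198 and 199 CPM in DZ (log2 fold change -1.17 ± 0.37), with LZ replicate 3 above the lowest DZ library. Cenpa, the centromeric histone, had -0.90 ± 0.23 and the checkpoint gene Mad2l1 -1.06 ± 0.32, both without overlap. The summed level of the list was 4738, 4379, 7626 and 5698 CPM in LZ and 6259.8, 7534, 6194 and 7866 CPM in DZ, so LZ replicate 3 was inside the DZ range.

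Promoters of mitotic genes are known to carry CCAAT boxes and a cell cycle homology region (CHR). Through the CHR they are repressed until G2. Of the 59 G2 and mitosis genes 49 had a RefSeq promoter (GRCm38.p6). Within 250 bases upstream, on either strand, 37 of them (75.5%) held CCAAT and 17 (34.7%) held TTTGAA, a form of the CHR, against 41.0% and 12.4% of all tested genes with a promoter. Over all genes whose libraries did not overlap, TTTGAA was held by 6.63% of those with LZ above DZ and by 14.9% of those with DZ above LZ, and CCAAT by 39.8% and 38.5% of the same sets. The shares in the G2 and mitosis list follow from what such promoters are known to carry and are not a result about the zones. A match describes these letters and is not a measured site. The windows of Cdc20 (chr4:118437344-118437593, minus strand), Ccnb2 (chr9:70421555-70421804, minus strand) and Cdc25b (chr2:131186698-131186947, plus strand), among the members of smallest p with a match, are shown 5′ to 3′ up to the base before the start, with matches to CCAAT or TTTGAA on either strand in capitals.
Cdc20: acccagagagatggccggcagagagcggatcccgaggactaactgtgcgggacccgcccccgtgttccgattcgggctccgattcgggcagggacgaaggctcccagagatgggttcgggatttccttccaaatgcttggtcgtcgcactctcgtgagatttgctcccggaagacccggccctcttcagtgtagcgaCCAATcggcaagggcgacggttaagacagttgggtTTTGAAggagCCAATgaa
Ccnb2: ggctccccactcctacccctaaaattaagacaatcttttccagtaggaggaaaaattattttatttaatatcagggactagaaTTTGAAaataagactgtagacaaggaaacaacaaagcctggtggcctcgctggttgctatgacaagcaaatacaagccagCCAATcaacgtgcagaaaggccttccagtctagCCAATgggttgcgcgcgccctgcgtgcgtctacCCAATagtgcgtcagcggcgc
Cdc25b: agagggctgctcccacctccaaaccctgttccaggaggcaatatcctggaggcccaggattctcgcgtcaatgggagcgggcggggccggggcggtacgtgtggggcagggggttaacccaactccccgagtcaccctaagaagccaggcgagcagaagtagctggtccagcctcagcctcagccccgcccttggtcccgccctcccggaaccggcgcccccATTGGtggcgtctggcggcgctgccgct
In Ccnb2 all 3 CCAAT boxes lay within the last 100 bases.

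S phase genes leaned less, with 21 of 58 tested members above 0, a median of -0.12 and 0 past the threshold. Rfc4, a subunit of the clamp loader, had -0.94 ± 0.32 without overlap, and Pold2, a subunit of DNA polymerase delta, lay on the other side at 0.78 ± 0.25 without overlap. Cyclins of G1 were split: Ccnd2 was at 20.8, 38.6, 17.3 and 26.6 CPM in LZ and 6.47, 1.49, 16.0 and 6.91 CPM in DZ (log2 fold change 1.76 ± 0.50), while Ccnd3, the cyclin that drives divisions in the dark zone, had -0.57 ± 0.26 with overlapping libraries. Neither cyclin passed. Somatic mutation and DNA repair genes other than Hmces did not pass, with 22 of 46 above 0 and a median of -0.03.

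Genes of oxidative phosphorylation were mostly below 0. Oxidative phosphorylation had 7 of 74 tested members above 0 and 67 below, 6 with DZ above LZ without overlap (8.11%), a median of -0.29 (from -0.36 to -0.22 over the alternatives) and 0 past the threshold. Its summed level was 20767 to 23172 CPM in LZ and 25094 to 31140.2 CPM in DZ, without overlap. Ndufs4, a subunit of complex I, was at 25.2, 25.7, 38.4 and 57.7 CPM in LZ and 68.6, 95.5, 87.2 and 86.7 CPM in DZ (log2 fold change -1.18 ± 0.28). Ndufb4 (-0.87 ± 0.25), Ndufa1 (-0.70 ± 0.22) and Cox6b1 (-0.72 ± 0.23) were also without overlap. Mitochondrial ribosomal proteins had 17 of 63 above 0 and a median of -0.23, the proteasome 13 of 43 and -0.18, splicing factors 19 of 60 and -0.16, and translation factors 18 of 53 and -0.14, with 0 past the threshold in each. Cytosolic ribosomal proteins were even, with 37 of 75 above 0 and a median of -0.01 that took the other sign under 20 of 28 alternatives, and so was ribosome biogenesis, with 35 of 74 above 0 and a median of -0.02.

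Genes of resting cells leaned to LZ. The naive, memory and quiescence list had 23 of 26 tested members above 0, 1 without overlap, a median of 0.46 and 0 past the threshold. Klf2, a factor that keeps lymphocytes quiescent, was at 343, 284, 107 and 161 CPM in LZ and 137, 65.6, 84.5 and 83.5 CPM in DZ (log2 fold change 1.29 ± 0.36), with LZ replicate 3 below the highest DZ library. Ddit4, a stress-induced brake on mTOR, was at 324, 208, 111 and 230.4 CPM in LZ and 127, 53.0, 66.7 and 77.2 CPM in DZ, with a log2 fold change of 1.45 ± 0.30 just short of the threshold (adjusted p = 0.0507, edgeR). Solute carriers had 70 of 111 above 0, 7 with LZ above DZ without overlap, 2 the other way and a median of 0.16. Death and survival genes had 14 of 24 tested members above 0 and 10 below, with a median of 0.09. They included Bcl2 at 1.79 ± 0.58 and Cflar, an inhibitor of death receptors, at 1.27 ± 0.37, and the libraries of Cflar did not overlap. None of these passed.

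Both WT libraries numbered 5 had been seen to be closer to the other zone, so leaving them out favours separation between the zones. Without both, some of the genes above passed. All 10 higher-side genes named above as next by p did, with Cd40 at 1.08 ± 0.23 and Capg at 1.61 ± 0.31 (log2 fold change ± SE), and 5 of the 10 on the lower side, among them Cdc25b and Eif2ak3. Pim1 (-1.48), Pou2af1 (-1.14), Ndufs4 (-1.54), Nfkb2 (1.01), Ifi30 (0.96) and Ddit4 (1.40) passed too (log2 fold changes in that fit, edgeR). By list, 3 of 30 light zone genes (10%) and 2 of 22 NF-kB and CD40 genes (9.09%) passed on the higher side. Over all tested genes, 0.489% passed on that side and 1.76% on the lower. Lower in LZ were 6 of 16 dark zone genes (37.5%), 5 of 43 proteasome genes (11.6%) and 3 of 73 oxidative phosphorylation genes (4.11%). G2 and mitosis, with 1 of 56 passing (1.79%), was at the share of all tested genes. None of the 13 immediate early factors passed. With 3 libraries a zone, 10.4% of all tested genes had LZ above DZ without overlap and 14.3% DZ above LZ. Against these shares, 13 of 30 light zone genes, 9 of 22 NF-kB and CD40 genes and 9 of 20 MHC class I genes had LZ above. Of the dark zone genes, 9 of 16 had DZ above. Oxidative phosphorylation genes with DZ above, 11 of 73, were near the share of all tested genes. G2 and mitosis genes with DZ above, 6 of 56, were below it.

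Markers of other cells moved with the zones in places, and their part in the results was not tested. Markers of naive and memory B cells (16 of 17 in the table) summed to 2142 to 3142 CPM in LZ and 1727 to 1990 CPM in DZ, without overlap, beside the naive and memory list above. Plasma cell markers (10 of 12) summed to 1541 to 1841 CPM in LZ and 2349 to 3028 CPM in DZ, most of it Mzb1, a chaperone of antibody secretion (log2 fold change -0.73 ± 0.24). Of 8 tested plasma cell markers 4 were above 0 and 4 below, 2 with LZ above DZ without overlap and 1 the other way, with a median of 0.03. Jchain, which joins antibody units, was at 38.4, 157, 219 and 319 CPM in LZ and 419, 959.8, 809 and 44.0 CPM in DZ. T cell markers (16 of 22) summed to 311 to 616 CPM in LZ and 245 to 413 CPM in DZ. Of 9 tested, 8 were above 0, 4 of them at an unadjusted p under 0.05, 0 were without overlap, and the median of 1.498 was the highest of all lists; in SykY317F 2 of the 9 lay on the same side, with a median of -0.85. Among them, Thy1 was at 39.5, 33.6, 0 and 11.5 CPM in LZ and 2.59, 0.746, 9.79 and 1.26 CPM in DZ. Macrophage and dendritic cell markers (11 of 19) summed to 150 to 242 CPM in LZ and 171 to 489 CPM in DZ. Follicular dendritic and stromal markers (8 of 16) summed to 772 to 1318 CPM in LZ and 440.0 to 754 CPM in DZ, of which Fcer2a, also a B cell gene, made up most. The 1 NK cell marker in the table stayed under 13 CPM and the granulocyte and erythroid markers (3 of 13) under 9 CPM in every WT library. GC B cell markers (12 of 13) summed to 6747 to 9084 CPM in LZ and 9676 to 12589 CPM in DZ, without overlap, with 11 of 12 members below 0.

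The SykY317F libraries gave zone values for the same genes in cells that the WT comparison does not contain. All 15 genes lay on the same side in SykY317F, as 61.3% of all tested genes did, and 12 of the 15 had an unadjusted p under 0.05 there, against 10.3% of all tested genes. Both comparisons used the same estimate of spread for each gene, so a gene of small spread reaches a small p more easily in both. The 10.3% is therefore not a like comparison for genes picked by their p in WT. Of the 15, Gadd45b alone passed in SykY317F after adjustment over all genes, where 0.0375% of those tested passed, at 181 ± 15.7 CPM in SykY317F LZ and 523 ± 89.8 CPM in SykY317F DZ (SD, n = 3 each; log2 fold change -1.52 ± 0.24; adjusted p = 0.0154, edgeR). Without SykY317F DZ replicate 1 or 4, or without SykY317F LZ replicate 1, 2 or 4, none of the 15 passed there. Rgcc (-2.22 ± 0.48), Myl4 (-1.69 ± 0.33), Pafah1b3 (-1.65 ± 0.33), Lipc (-1.52 ± 0.37) and Hmces (-1.43 ± 0.36) had log2 fold changes close to those in WT. For Scn11a the SykY317F LZ libraries held 0 UMIs together, against 45 in the SykY317F DZ libraries. The SykY317F LZ libraries held 149641 to 379125 UMIs, fewer than any WT library, so weakly expressed genes were less precisely measured there.

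The lists varied in this respect. In SykY317F the light zone list had 24 of 30 tested members on the side they had in WT (median 0.54), the dark zone list 13 of 16 (-0.32) and G2 and mitosis 44 of 59 (-0.66). The NF-kB and CD40 list had 15 of 22 (0.21), and inhibitory co-receptors and phosphatases 18 of 27 (0.006). Naive, memory and quiescence genes had 16 of 26 (0.09), and oxidative phosphorylation 46 of 74 (-0.10). Over all tested genes the share on the same side was 61.3%. The immediate early transcription factors had 2 of 13, with a median of -0.25 in SykY317F against 1.28 in WT. The difference of these medians was not tested.

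No gene passed the test of the difference between the zone effects of WT and SykY317F (0.00% called, smallest adjusted p = 0.535, edgeR; 384 genes or 4.80% at an unadjusted p under 0.05). Among the 15, the 3 with an unadjusted p under 0.05 for that difference were Gadd45g, Sh3bp2 and Cmpk1. The WT minus SykY317F difference in log2 fold change was 1.46 ± 0.52 for Gadd45g, 1.24 ± 0.54 for Sh3bp2 and -0.87 ± 0.40 for Cmpk1 (SE; adjusted p from 0.991 to 0.999, edgeR). Gadd45g averaged 106 ± 19.5 CPM in SykY317F LZ and 87.8 ± 20.8 CPM in SykY317F DZ (SD, n = 3 each), against 125 ± 65.5 CPM in WT LZ and 38.4 ± 9.27 CPM in WT DZ (SD, n = 4 each). The gap between its SykY317F means was smaller than the SD of either SykY317F group. Sh3bp2 averaged 77.6 ± 22.7 CPM in SykY317F LZ and 54.3 ± 28.0 CPM in SykY317F DZ, against 94.3 ± 39.7 CPM in WT LZ and 29.6 ± 10.9 CPM in WT DZ. Cmpk1 averaged 129 ± 25.5 CPM in SykY317F LZ and 168 ± 29.8 CPM in SykY317F DZ, against 128 ± 41.1 CPM in WT LZ and 299 ± 66.6 CPM in WT DZ. None of the 3 passed after adjustment.

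**Figure D5:**
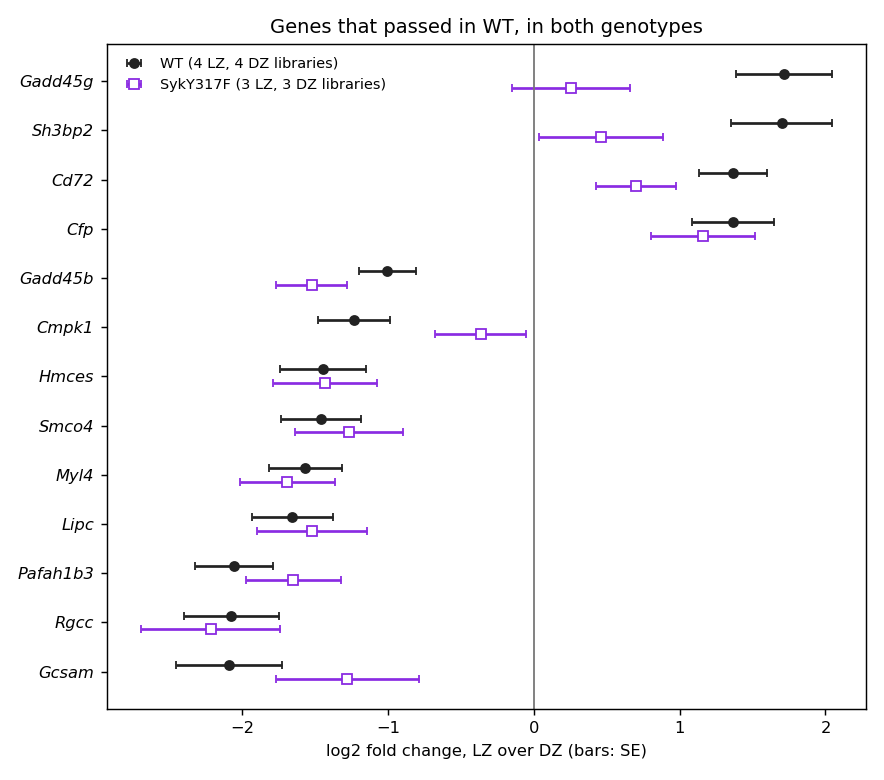
Log2 fold change of LZ over DZ with its SE for 13 named genes that passed in WT, in WT and in SykY317F. Scn11a, with 0 UMIs in SykY317F LZ, is left out, and all 13 lie on the same side in both genotypes, with Gadd45g (1.71 in WT, 0.25 in SykY317F) and Cmpk1 (-1.23 in WT, -0.36 in SykY317F) nearest to 0 in the mutant cells.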

How the data were processed

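Zone-sorted GC B cells were profiled by bulk RNA sequencing following a modified MARS-seq protocol, per the labels. Tools named in the submitters' processing notes are STAR 2.4.2a, cutadapt, HTSeq, DESeq and DESeq2, with mm10 as the build. How strands and multiply mapped reads were counted is not stated. The authors deposited whole-number UMI counts and read counts per gene, not normalised, and their own log2 fold changes and adjusted p-values, used here only for the count of shared calls. The 28 per-sample columns of normalised and transformed values were not used.

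UMI counts of all 14 libraries were fitted in edgeR 4.0.16 (R 4.3.3; filterByExpr, TMM scaling, robust quasi-likelihood, 4 groups, biological coefficient of variation 32.3%). P-values were Benjamini-Hochberg adjusted over 7999 genes, with a threshold of 0.05. Named genes were those past the threshold, the 10 of smallest p without overlap on each side, up to 5 of smallest p per list, and Syk, Cxcr4, Cd83, Cd86, Bcl6, Myc and the Gadd45 genes; some genes that this rule names are not reported here. Rgs13, Kdm6b and Nfkbia lie outside this rule. They, like the list members, lists and tests, were chosen with earlier results of these data known. Positions are those of GENCODE M21 (GRCm38, the assembly of mm10) and promoters those of RefSeq. Same-numbered LZ and DZ libraries were treated as unpaired, since the labels do not say whether the numbers pair them. Alternatives were other scaling, filters, tests (DESeq2 1.42.0, limma 3.58.1 voom), a surrogate variable (sva 3.50.0), read counts, a replicate block and left-out libraries.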

Additional observations from a re-analysis of the deposited data

Results flagged for a closer look

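In 100 groups of 4 libraries examined, 5 held a library far from its fellows, about what chance gives (1 group in 20). WT DZ replicate 4 was the highest of its zone for Cd72, at 357 CPM against 287 to 292 CPM in the other WT DZ libraries, and still below WT LZ. WT DZ replicate 3 was the lowest for Gadd45g, at 24.6 CPM against 41.4 to 44.0 CPM. WT LZ replicate 3 was the highest of its zone for Pafah1b3, at 242 CPM against 155 to 161 CPM. WT DZ replicate 3 had the lowest sum of naive and memory B cell markers, 1727 CPM against 1961 to 1990 CPM. The NK cell marker was at 12.9 CPM in WT LZ replicate 2, against 3.84 to 4.39 CPM in the other WT LZ libraries.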

How the results depend on the processing

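The WT count of 15 was within 1.5 times of itself with DESeq2 size factors, scaling by library size and either filter. It was 98 with DESeq2 (44 higher, 54 lower, 14 of the 15 shared), 295 with voom quality weights (15 shared), 6 with both groups alone, 0 with read counts, and, among choices made after the data were seen, 170 without both WT libraries numbered 5, 7 without WT LZ 1 and WT DZ 5, 4 without the 4 libraries under 400000 UMIs and 39 with 1 surrogate variable. Leaving out 1 library gave 1 to 26. The same-numbered LZ and DZ libraries had correlations of 0.15, 0.08 and -0.56 between their deviations (numbers 2, 3 and 5). These few values cannot tell whether the numbers pair the libraries, and both libraries numbered 5 resembled the other zone. With the number as a replicate block 14 genes passed, 11 of them among the 15, and 0 with WT pairs only (420 at an unadjusted p under 0.05).

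The count of differences between zone effects was 6 without both libraries numbered 5, 2 with the surrogate variable and otherwise 0. Genes without overlap, 461 in all, numbered 1868 without both libraries numbered 5, 1236 without WT LZ 1 and WT DZ 5, and 535 to 1002 with 1 library left out. With fewer libraries in a zone, separation without overlap arises more often by chance. These counts are therefore not on the same scale as the 461. In SykY317F 3 genes passed in the zone comparison, 9 with scaling by library size, 39 with DESeq2, 20 with read counts, 1 with the replicate block, 8 without both WT libraries numbered 5 or without WT LZ 1 and WT DZ 5, 14 with the surrogate variable, and 0 to 10 with 1 library left out.

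No log2 fold change of the 15 changed sign, and 281 of 419 comparisons kept them past the threshold. Signs under the alternatives were followed for 141 genes, not for all genes tested or named here. Genes that changed sign were Irf7 (0.0093 with voom, 0.020 without WT LZ 1 and WT DZ 5, and -0.70 to 0.056 with 1 library left out), Gadd45a (0.014 with WT pairs only, 0.16 with read counts, 0.30 without both libraries numbered 5, 0.26 without WT LZ 1 and WT DZ 5, and -0.48 to 0.12 with 1 left out), Cd86 (-0.22 without both libraries numbered 5) and Cr2 (-0.34 without both numbered 5, and -0.022 to 0.85 with 1 left out). The cause of these changes was not tested. Genes at or under 3 UMIs (1.73 to 5.76 CPM) were not measurable.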

Other observations

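Actin and adhesion genes were split between the zones, with 40 of 75 tested members above 0 and a median log2 fold change of 0.03. Dock10, an activator of small GTPases, was at 193, 277, 148 and 202 CPM in WT LZ and 97.1, 91.0, 111 and 101 CPM in WT DZ (log2 fold change 1.04 ± 0.26). Anxa2, a membrane-binding annexin, was at 231, 178, 447 and 274 CPM in WT LZ and 621, 588, 565 and 1159.9 CPM in WT DZ (log2 fold change -1.39 ± 0.34). Neither passed in edgeR (adjusted p = 0.103 for each), and in neither did the zones overlap. Itgb7, a gut-homing integrin chain, had 1.001 ± 0.31 with overlapping libraries.

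Among chromatin genes, 26 of 59 tested members were above 0, with a median of -0.07 and 0 past the threshold. Without overlap, 4 members (6.78%) had DZ above LZ and 2 (3.39%) LZ above DZ, against 2.88% and 2.89% of all tested genes. Hist1h2bc, a histone H2B gene, had -1.31 ± 0.33 without overlap. Kdm6b, a demethylase of repressive histone H3 marks, lay on the other side at 1.38 ± 0.55 without overlap. Kdm6b had the highest log2 fold change of the list and was chosen with earlier results known. Zinc finger genes had 62 of 145 tested members above 0, and 4 (2.76%) with LZ above DZ without overlap, near the 2.89% of all tested genes, among them Zfp362 at 0.83 ± 0.26 and Zfp385a at 1.54 ± 0.52. The 2 vitamin C transporters differed in direction, Slc23a1 with -1.21 ± 0.36 and Slc23a2 with 0.92 ± 0.28, both without overlap and neither past the threshold.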
